A study of Mus musculus with 6 samples.

Results

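The pluripotency network genes Pou5f1, Sox2, Nanog, Esrrb, Tbx3, Gbx2, Prdm14, Tfcp2l1, Lin28a and Sall4 were followed in fully grown mouse oocytes that lack both catalytic subunits of Polycomb repressive complex 1 (PRC1). They were chosen by name as core and accessory factors, with the Klf genes left out and earlier results of these data known. All 10 were found among the 24028 genes of the expression table. The double knockout (dKO) oocytes came from Ring1 -/-; Rnf2 f/f; Zp3-cre females, and the control oocytes from Ring1 -/-; Rnf2 f/f females without the transgene, so Ring1 was deleted in both groups. Zp3-cre is driven by a zona pellucida promoter that is active in growing oocytes, and its own effect cannot be told apart from that of losing Rnf2. There were 3 libraries in each group. Each held total RNA of 15 germinal vesicle oocytes, which are arrested before meiotic maturation, pooled from 1 female of about 3 months on a mixed FVB, 129/Sv and C57BL/6J background.

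In embryonic stem cells and in the inner cell mass of the blastocyst, POU5F1 (OCT4), SOX2 and NANOG bind DNA as the core of the network that keeps cells able to form every embryonic lineage. ESRRB, TBX3, GBX2, PRDM14 and TFCP2L1 are accessory transcription factors of its naive state, SALL4 is a zinc finger partner of OCT4, and LIN28A is an RNA-binding protein that blocks maturation of let-7 microRNAs. Oocytes carry maternal RNA of part of this network into the zygote, while Polycomb complexes are best known for holding developmental regulators with CpG-rich promoters silent. RING1 and RNF2 are the E3 ubiquitin ligases of PRC1.

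Values are FPKM, by definition fragment counts divided by transcript length and by library size, a unit meant for comparing levels of different genes. How these libraries were scaled is not given, and the RNA was amplified. The order of levels across genes therefore rests on the values as deposited. Summed FPKM ran from 278701 to 309549 in dKO libraries and from 318273 to 327480 in control libraries. Absolute depth is unknown, and the depth read from low values, relative to control replicate 1, was 0.661, 0.805 and 1.08 in dKO replicates 1 to 3 against 0.903 and 1.02 in control replicates 2 and 3. Rnf2 followed the labels, with 14.8, 8.44 and 5.31 FPKM in dKO oocytes against 53.7, 46.8 and 48.2 FPKM in control oocytes. Ring1 stood at 0.240 FPKM or less in every library. Log2 values correlated across genes at Pearson r 0.928 to 0.948 among dKO libraries and 0.982 to 0.983 among controls, and the median SD of tested genes was 0.32 log2 units in dKO and 0.14 in control libraries. All 13 oocyte markers examined were present, led by Gdf9 and Zp3, and their summed level was 5026 to 6893 FPKM in dKO oocytes and 8385 to 8690 FPKM in control oocytes. Of these 13, limma called 0 higher and Bmp15, Kit, Mos and Oog1 lower in dKO oocytes with the filter used here (0 and 9 at an unadjusted p under 0.05), and Kit alone lower with no filter; over all tested genes 7.04% were lower.

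The network was unevenly represented in both groups. Sall4 was the most abundant member, at 157 ± 51.7 FPKM in dKO oocytes and 206 ± 20.5 FPKM in control oocytes (SD, n = 3 each), above 99.0% and 99.2% of all genes. Below Sall4, dKO oocytes held Gbx2 at 71.1 ± 27.2, Lin28a at 35.8 ± 14.6 and Pou5f1 at 26.5 ± 7.87 FPKM, and control oocytes held them at 36.4 ± 3.24, 36.2 ± 3.29 and 30.2 ± 2.37 FPKM (SD, n = 3 each). The ranges of Lin28a and Pou5f1 overlapped in dKO oocytes, and those of Gbx2 and Lin28a in control oocytes. Esrrb came next in both groups, at 13.7 ± 1.84 FPKM in dKO oocytes and 11.6 ± 2.07 FPKM in control oocytes. Sox2, Tbx3 and Tfcp2l1 followed in that order in dKO oocytes, while the order in control oocytes was Tbx3, Tfcp2l1 and Sox2. Nanog and Prdm14 were at or close to 0 in both. Of the core triad, Pou5f1 and Sox2 were thus above 1 FPKM in every dKO library, and Pou5f1 alone in the control libraries.

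In dKO oocytes Sox2, Gbx2 and Tbx3 rose, and the other members did not pass the test. The test was limma on log2(FPKM + 1) over the 11334 genes that reached 1 FPKM in 3 or more libraries, two-sided, with Benjamini-Hochberg adjustment over all of them and a threshold of 0.05. Among the 8 members tested, 3 were higher and 0 lower in dKO oocytes, where 21.0% of all tested genes were called: 14.0% were higher and 7.04% lower. At an unadjusted p under 0.05 the members lower also numbered 0. Sox2 passed the filter through its dKO values alone, so its place among the tested members already needed a difference. Of the 6 members at 1 FPKM or more in all 3 controls, 2 were higher and 0 lower, against 7.03% and 8.17% of 9765 such genes. With no filter, 2 of the 10 members were higher, Sox2 and Tbx3, and 0 lower, against 9.88% and 2.68% of the 20310 genes above 0 in any library. The dKO libraries lay wholly above the controls for 3 of the 8 tested members and wholly below for 0, against 22.3% and 19.2% of all tested genes. The median log2 change of the 8 tested members was 0.28, and that of all tested genes was -0.019. Sox2 is part of this median and of the count of members wholly above the controls. With no filter the median was 0.15 over the 10 members and 0.029 over all 20310 genes.

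**Figure D1:**
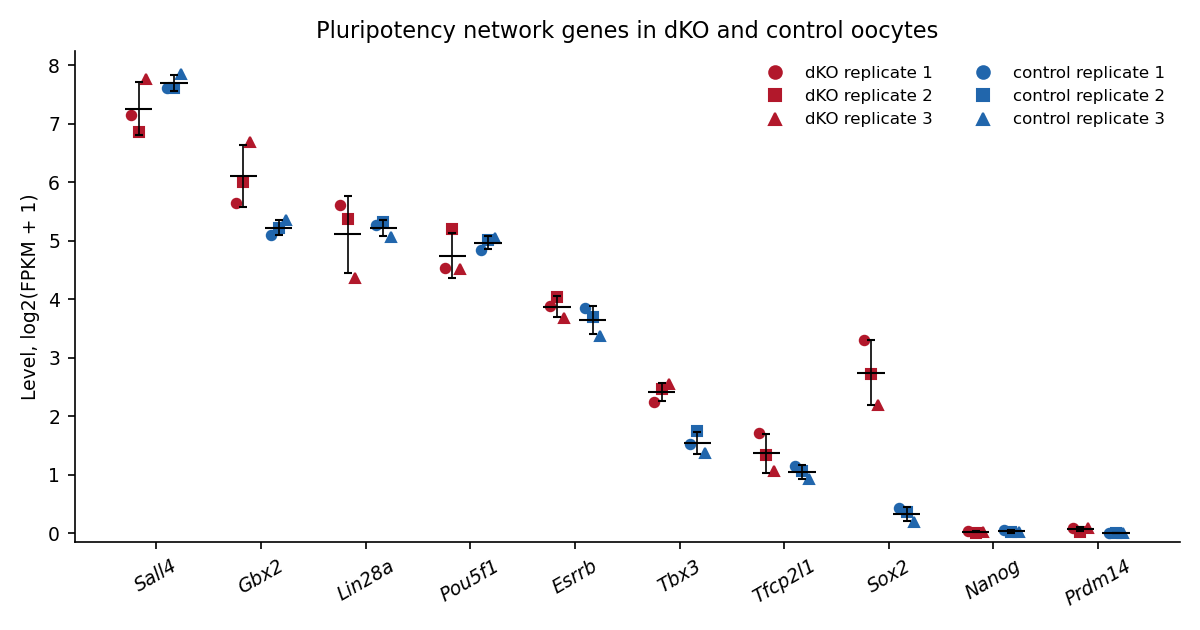
Level of each member in each library on the log2(FPKM + 1) scale, with dKO libraries in red on the left of each pair and control libraries in blue; bars mark the mean ± SD of 3 libraries. Sox2, Gbx2 and Tbx3 have all 3 dKO libraries above all 3 control libraries, while Sall4, Lin28a, Pou5f1, Esrrb and Tfcp2l1 overlap.

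Sox2 encodes an HMG-box factor that pairs with OCT4 on DNA and is also a regulator of neural precursors. Its level was 8.88, 5.55 and 3.57 FPKM in dKO oocytes, against 0.343, 0.285 and 0.140 FPKM in control oocytes. The groups were far apart, and the lowest dKO library stood above the highest control. The ratio of the means was 23.5, and by limma the log2 change was 2.41 ± 0.28 (SE, adjusted p = 0.00045), with a 95% interval of 1.78 to 3.04. Since the pseudocount compresses genes near 0, the log2 change was 4.05 with a pseudocount of 0.1 FPKM. Sox2 kept its call in each of the 15 alternatives in which it was tested. In the order of member levels Sox2 ranked 6 in dKO oocytes, where its range overlapped that of Tbx3, and 8 in control oocytes.

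The long noncoding RNA gene Sox2ot, within which Sox2 lies, read 0.475, 0.347 and 0.837 FPKM in dKO oocytes and 0.227, 0.142 and 0.131 FPKM in control oocytes, and was below the filter. Its log2 change with no filter was 0.40 (limma adjusted p = 0.094). The groups did not overlap, as for 22.3% of the 20310 genes in that direction. The coding genes on either side, Dnajc19 and Atp11b, had log2 changes of -0.31 and 0.27 (limma adjusted p = 0.619 and 0.369).

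Tested genes with Gm, LOC or Rik symbols were left out of a search for genes with levels like those of Sox2. Nearest over the 6 libraries were Arrdc4, Epcam and Galnt7, at Euclidean distances of 0.355, 0.498 and 0.508 in log2(FPKM + 1). They were picked on these same values, so their likeness to Sox2 is given by the choice. Epcam, an epithelial cell adhesion gene, had 10.1, 6.32 and 5.05 FPKM in dKO oocytes and 0.225, 0.307 and 0.238 FPKM in control oocytes. The arrestin domain gene Arrdc4 averaged 5.97 FPKM in dKO oocytes and 0.281 FPKM in control oocytes, and the glycosyltransferase gene Galnt7 averaged 5.61 and 0.0821 FPKM in dKO and control oocytes.

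Granulosa cells had been stripped from the oocytes by pipetting, per the labels' protocols. RNA of several genes that mark surrounding ovarian cells was higher in the same dKO libraries as Sox2. Of 14 genes listed as granulosa and cumulus markers 6 were tested and Fshr, Nr2f2 and Wt1 rose. These 3 passed the filter through their dKO values alone. Nr2f2 is not specific to granulosa cells, so its rise cannot be assigned to them. The 2 markers at 1 FPKM or more in all controls, Cyp19a1 and Bex4, did not pass the test. With no filter 4 of the 14 were higher and 0 lower, against 9.88% and 2.68% of all genes, and Gja1 joined the other three. The summed level was 29.6 to 36.8 FPKM in dKO oocytes and 13.6 to 19.1 FPKM in control oocytes. Fshr, the receptor for follicle stimulating hormone, averaged 10.6 ± 1.23 FPKM in dKO oocytes and 0.158 ± 0.0183 FPKM in control oocytes (SD, n = 3). The gap junction gene Gja1 averaged 1.05 FPKM in dKO oocytes and 0.220 FPKM in control oocytes (limma adjusted p = 0.0194 with no filter). Wt1 lost its call after quantile normalization (limma adjusted p = 0.155). The aromatase gene Cyp19a1 averaged 5.78 FPKM in dKO oocytes and 9.94 FPKM in control oocytes (limma adjusted p = 0.05004). Foxl2, a defining granulosa factor, read 0.378, 0.586 and 0.0769 FPKM in dKO oocytes and 0.0972, 0 and 0.0817 FPKM in control oocytes, and the groups overlapped. Amhr2 was at 0.0817 FPKM or less in every library. Fst stands on this list and on that of the epiblast used further on.

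Of 14 markers of theca, stroma, endothelium and blood 2 were tested, and they did not move one way. With no filter limma called 4 of 13 higher and 0 lower in dKO oocytes, against 9.88% and 2.68% of all genes. These 4 were the stromal genes Dcn, Pdgfra, Col1a1 and Lum, all at low levels. The stromal gene Col1a2 was not called, nor were the theca genes Star, Cyp17a1 and Cyp11a1, whose groups overlapped. The proteoglycan gene Dcn averaged 1.41 FPKM in dKO oocytes and 0.207 FPKM in control oocytes (adjusted p = 0.0142 by limma with no filter). The receptor gene Pdgfra averaged 0.578 FPKM in dKO oocytes and 0.0758 FPKM in control oocytes (limma adjusted p = 0.00407), and the collagen gene Col1a1 0.138 FPKM in dKO oocytes and 0.00472 FPKM in control oocytes (0.00644). Lum averaged 0.333 FPKM in dKO oocytes and was listed at 0 in all controls (limma adjusted p = 0.0483). Pecam1, listed as an endothelial gene, made up most of the list's summed level. That sum was 16.5 to 21.8 FPKM in dKO oocytes and 22.5 to 29.9 FPKM in control oocytes. Cdh5, also an endothelial gene, was at 0.0317 FPKM or less in every library. The cell source of the Pecam1 RNA was not tested. Pecam1 alone averaged 14.9 FPKM in dKO oocytes and 25.2 FPKM in control oocytes and was called lower with the filter (log2 change -0.72). It lost that call with no filter (limma adjusted p = 0.0505), with array weights (0.0766) and without dKO replicate 1 or control replicate 1 or 3 (up to 0.130). Cd68 averaged 1.75 FPKM in dKO oocytes and 1.22 FPKM in control oocytes. Col1a2 was at 0 in all dKO libraries and in all but 1 control, and Hbb-b1 in all libraries. The part of other cells in the Sox2 signal was not tested, and more RNA per oocyte cannot be told apart from more cells that carry it.

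Gbx2, a homeobox gene that acts downstream of LIF and STAT3 in mouse stem cells and later patterns the midbrain-hindbrain border, was already abundant in control oocytes. It reached 49.1, 62.7 and 102 FPKM in dKO oocytes, against 33.4, 36.2 and 39.8 FPKM in control oocytes. The groups did not overlap, and dKO replicate 3 stood well above the others. By limma Gbx2 rose by 0.88 ± 0.25 on the log2 scale (SE, adjusted p = 0.0346), with a 95% interval of 0.32 to 1.44. Gbx2 lost its call without dKO replicate 2 or any 1 control (limma adjusted p 0.0549 to 0.121), with no filter (0.0919) and after median-ratio scaling (0.0600), and its log2 change was 0.60 without dKO replicate 3. It was second among the members in both groups. The neighbouring genes were Agap1, at -0.32 (limma adjusted p = 0.213), and Asb18, listed at 0 in every library.

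Tbx3 encodes a T-box repressor that supports self-renewal of mouse stem cells and takes part in limb and mammary development. Its level was 3.75, 4.49 and 4.83 FPKM in dKO oocytes, against 1.86, 2.35 and 1.58 FPKM in control oocytes. All dKO libraries stood above all controls, and Tbx3 varied less among dKO libraries than any other tested member, with an SD of 0.15 log2 units against 0.19 among controls. The ratio of the means was 2.26 and the limma log2 change 0.87 ± 0.20 (SE, adjusted p = 0.0157), with a 95% interval of 0.41 to 1.33. Tbx3 lost its call without control replicate 1 or 3 (limma adjusted p = 0.0710 and 0.0809) and after quantile normalization (0.0781). Its neighbour Tbx5, a T-box gene of heart and forelimb, read 1.63, 1.33 and 1.17 FPKM in dKO oocytes and 0.370, 0.248 and 0.371 FPKM in control oocytes, with a log2 change of 0.83 (limma adjusted p = 0.00695, and 0.301 after quantile normalization). Tbx5 entered the test through its dKO values alone. Med13l, on the other side of Tbx3, had a log2 change of -0.16 (limma adjusted p = 0.571). Without stated strand, reads of the antisense genes that overlap exons of Tbx3 and Gbx2 cannot be told apart from theirs.

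**Figure D2:**
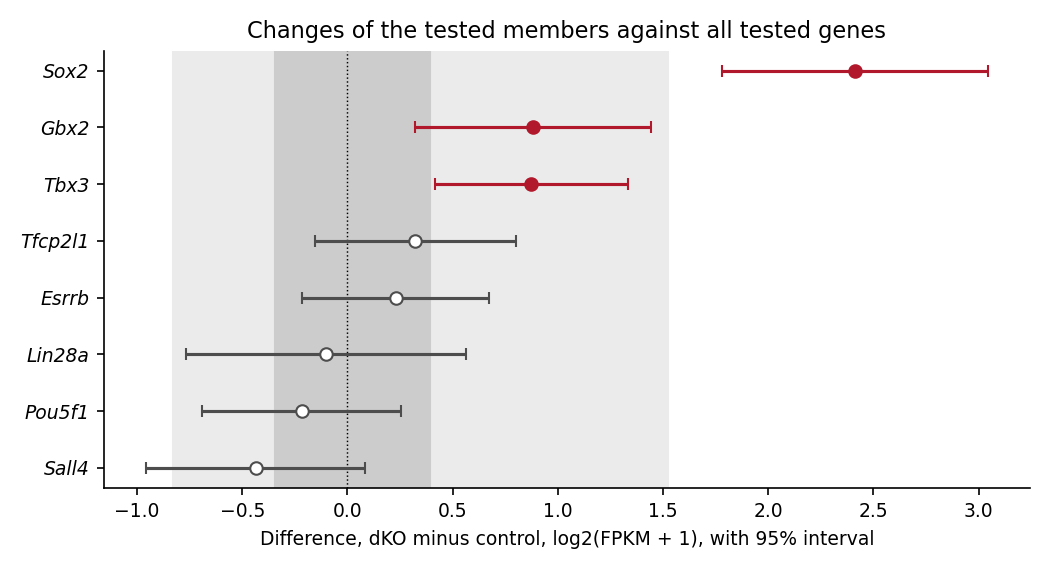
Log2(FPKM + 1) difference, dKO minus control, of the 8 tested members with the 95% interval from limma; filled red points passed an adjusted p of 0.05. The dark band spans the quartiles of all 11334 tested genes, -0.35 to 0.39, and the pale band their 5th to 95th percentile, -0.83 to 1.52: Sox2 lies beyond the pale band.

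Pou5f1, the POU factor at the centre of the network, had 22.0, 35.6 and 21.8 FPKM in dKO oocytes, against 27.5, 31.2 and 32.0 FPKM in control oocytes. The highest and the lowest value were both in dKO libraries, so the groups overlapped. Limma gave a log2 change of -0.22 ± 0.21 (SE, adjusted p = 0.489), and the 95% interval of -0.69 to 0.25 leaves room for a moderate change either way. Without dKO replicate 2 the log2 change was -0.44 (limma adjusted p = 0.0611). The nearest genes in level over the 6 libraries were the replication gene Mcm10, Troap and Tyw1, at distances of 0.146, 0.207 and 0.218 in log2(FPKM + 1). They were picked on these same 6 values, so their peak in dKO replicate 2, shared with Pou5f1, is no separate observation.

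Sall4, the zinc finger partner of OCT4, read 141, 115 and 215 FPKM in dKO oocytes, against 194, 195 and 230 FPKM in control oocytes. Both lowest values were in dKO replicates 1 and 2, while dKO replicate 3 lay within the control range. Limma put the change at -0.44 ± 0.23 log2 units (SE, adjusted p = 0.208), with a 95% interval of -0.96 to 0.085. Without dKO replicate 3 Sall4 was called lower, with a log2 change of -0.68 (limma adjusted p = 0.0171). Its neighbour Atp9a had a log2 change of -0.77 (limma adjusted p = 0.0462). That call of Atp9a held without dKO replicate 2 but was lost without any other single library (limma adjusted p up to 0.164), with no filter (0.0792) and with filters on a mean of 1 FPKM (0.0504) or on 5 FPKM (0.0525). Zfp64, on the other side, was at 0.141 FPKM or less.

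Lin28a read 47.8, 40.1 and 19.6 FPKM in dKO oocytes, against 37.3, 38.8 and 32.5 FPKM in control oocytes. The dKO libraries lay on both sides of the controls, with replicate 3 lowest. The limma estimate was -0.10 ± 0.29 log2 units (SE, adjusted p = 0.829), with a 95% interval of -0.77 to 0.56, and it turned to 0.27 without dKO replicate 3 (limma adjusted p = 0.210) and to 0.012 after quantile normalization. Lin28a had the largest spread of any tested member among dKO libraries, an SD of 0.66 log2 units against 0.13 among controls.

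Esrrb, an orphan nuclear receptor that can stand in for NANOG in stem cells, read 13.8, 15.5 and 11.8 FPKM in dKO oocytes, against 13.5, 11.9 and 9.37 FPKM in control oocytes. The groups overlapped, and limma gave 0.23 ± 0.20 log2 units (SE, adjusted p = 0.437) and a 95% interval of -0.22 to 0.67. Tfcp2l1, a CP2-family factor of the naive state, read 2.28, 1.52 and 1.08 FPKM in dKO oocytes, against 1.21, 1.09 and 0.893 FPKM in control oocytes. Its groups overlapped by 1 dKO library, and its limma estimate was 0.32 ± 0.21 log2 units (SE, adjusted p = 0.302), with a 95% interval of -0.15 to 0.80. After quantile normalization the change of Tfcp2l1 was -0.084.

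Nanog and Prdm14, a PR-domain factor of germ cell precursors and naive stem cells, were too low to be tested with the filter. Nanog read 0.0201, 0.00616 and 0.0159 FPKM in dKO oocytes, against 0.0348, 0.0102 and 0.0126 FPKM in control oocytes. Its groups overlapped, and with no filter its log2 change was -0.0073 (limma adjusted p = 0.830). Prdm14 read 0.0611, 0.0167 and 0.0621 FPKM in dKO oocytes and was listed at 0 in all 3 control libraries. With no filter its log2 change was 0.065 (limma adjusted p = 0.144). Nanog therefore stayed near 0 in the libraries in which Sox2 reached several FPKM. Dppa3, the maternal effect gene next to Nanog, read 1861, 999 and 1529 FPKM in dKO oocytes and 635, 728 and 944 FPKM in control oocytes (log2 change 0.90; limma adjusted p = 0.0490). Without any single library other than dKO replicate 2, Dppa3 lost its call (limma adjusted p up to 0.184). It also lost it with no filter (0.145), with filters on a mean of 1 FPKM (0.0519) or on 5 FPKM (0.0573), after median-ratio scaling (0.0792) and with array weights (0.0639). Of the 20 coding genes on either side of the members, 13 were tested, Tbx5 through its dKO values alone. Tbx5 and Dppa3 were higher and Atp9a lower, a share near the 21.0% called over all tested genes.

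**Figure D3:**
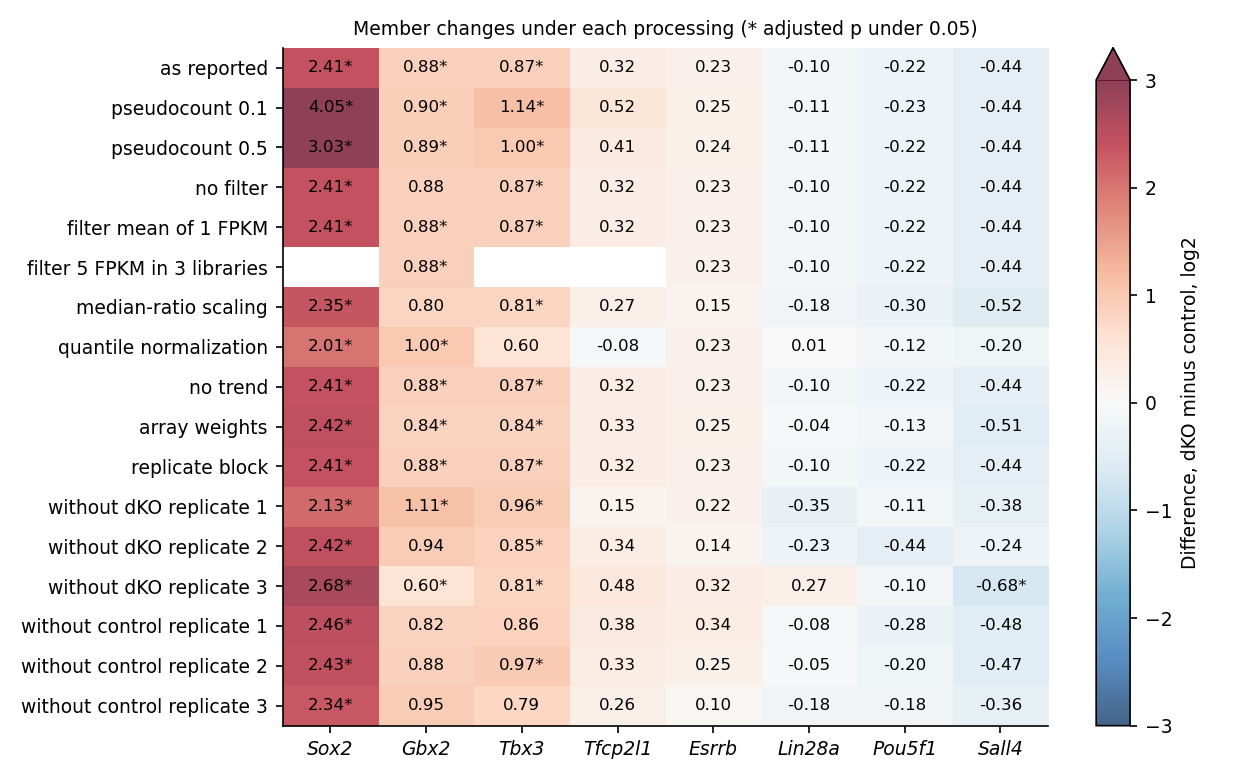
Log2 difference, dKO minus control, of the 8 tested members as reported (top row) and under each alternative; an asterisk marks an adjusted p under 0.05 and a blank cell a member that the stricter filter removed. Sox2 is starred wherever it was tested, Gbx2 and Tbx3 lose the star in 6 and 3 alternatives, and Sall4 gains it in 1.

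The upstream sequences of Sox2, Gbx2, Pou5f1 and Nanog are shown. They were picked after values were seen, because they differ in CpG content among members that did and did not rise. CpG content is the feature by which Polycomb targets are best known. Each line gives the 250 bases before an annotated start from RefSeq (GRCm38.p6, while the expression values rest on mm9), 5′ to 3′, with CpG dinucleotides in capitals. Windows were matched by symbol for 7 of the 10 members; Tbx3, Prdm14 and Sall4 are named only. Where RefSeq lists several starts for a gene, the window listed first is shown. Sox2 lies at chr3:34649745-34649994 on the + strand, Gbx2 at chr1:89931177-89931426 on the - strand, Pou5f1 at chr17:35505782-35506031 on the + strand and Nanog at chr6:122707239-122707488 on the + strand.
Sox2: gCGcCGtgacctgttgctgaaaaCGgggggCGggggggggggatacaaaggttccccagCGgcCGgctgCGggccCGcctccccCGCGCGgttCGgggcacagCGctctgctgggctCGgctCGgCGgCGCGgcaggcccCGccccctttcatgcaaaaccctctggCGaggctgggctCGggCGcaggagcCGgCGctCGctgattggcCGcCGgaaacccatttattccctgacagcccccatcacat
Gbx2: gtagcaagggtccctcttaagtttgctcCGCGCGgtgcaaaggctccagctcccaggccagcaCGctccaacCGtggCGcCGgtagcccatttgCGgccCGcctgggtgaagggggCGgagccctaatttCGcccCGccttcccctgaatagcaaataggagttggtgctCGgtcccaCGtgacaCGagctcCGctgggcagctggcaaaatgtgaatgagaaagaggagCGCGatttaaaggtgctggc
Pou5f1: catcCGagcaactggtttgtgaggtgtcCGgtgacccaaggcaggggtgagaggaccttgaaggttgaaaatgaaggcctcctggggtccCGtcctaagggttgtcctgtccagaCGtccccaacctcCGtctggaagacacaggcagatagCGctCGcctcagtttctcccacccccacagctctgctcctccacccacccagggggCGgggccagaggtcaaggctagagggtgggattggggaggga
Nanog: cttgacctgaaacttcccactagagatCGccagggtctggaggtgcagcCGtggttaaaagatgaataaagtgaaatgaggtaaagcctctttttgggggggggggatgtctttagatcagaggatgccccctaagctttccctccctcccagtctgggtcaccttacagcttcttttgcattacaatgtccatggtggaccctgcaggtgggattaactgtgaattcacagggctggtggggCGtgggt

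Sox2 had 27 CpG dinucleotides in this window and Gbx2 18, while Pou5f1 had 8 and Nanog 3. Tfcp2l1, which is not shown and was not called, had 16, Lin28a 7 and Esrrb 6. Whether CpG content goes with a rise was not tested among the members. Over the 16892 genes of the table with a window, 51.1% had 10 or more, and 90.5% had as many as Sox2 or fewer. The median was 15 among those higher in dKO oocytes, 13 among those lower and 16 among tested genes that were not called, and 10 or more were found in 68.6%, 62.8% and 75.7% of them. The POU-factor heptamer TTTGCAT, searched on both strands, was found once in the Sox2 window, starting 99 bases before the annotated start, and once in the Nanog window, 75 bases before it. It occurred in 3.78% of all windows and in none of those of Pou5f1, Gbx2, Esrrb, Tfcp2l1 and Lin28a.

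**Figure D4:**
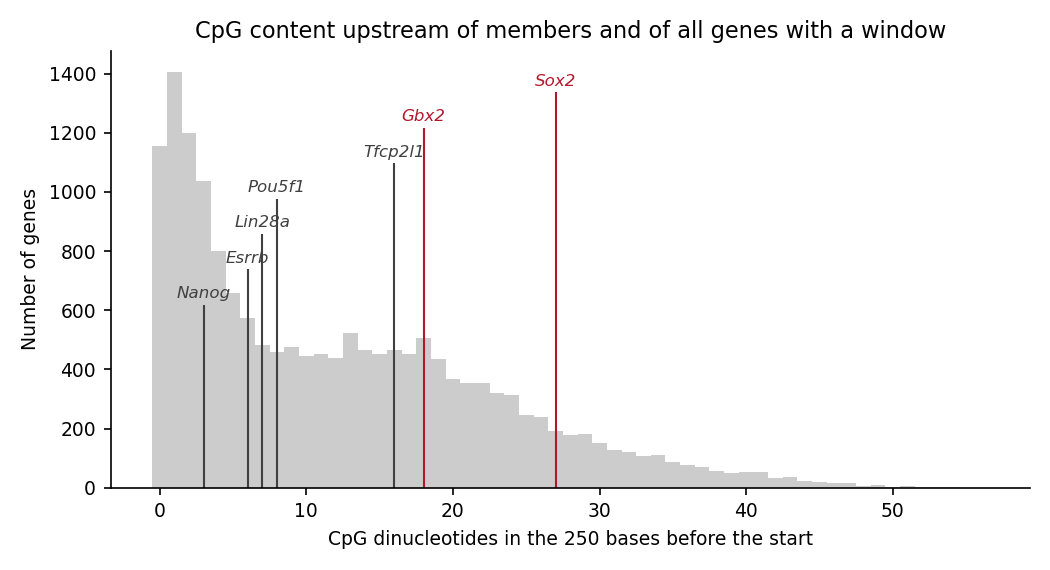
Number of genes (bars) by CpG dinucleotides in the 250 bases before the start, for the 16892 genes with a window; vertical lines mark the 7 members, in red those called higher in dKO oocytes. Sox2, at 27, and Gbx2, at 18, lie to the right of the other 5 members.

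Further genes of the network were read from 5 lists of 69 genes in all, of which 40 passed the filter. Of these, 10 were higher and 2 lower in dKO oocytes, against 14.0% and 7.04% of all tested genes, with a median log2 change of 0.15 against -0.019 over all tested genes. With no filter 12 of 66 were higher and 2 lower, against 9.88% and 2.68%, with a median log2 change of 0.17 against 0.029. Of the 33 at 1 FPKM or more in all controls, 3 were higher and 2 lower, against 7.03% and 8.17% of such genes. Genes of the stem cell core and naive state divided. Of 22 such genes 12 were tested, 4 rose and 1 fell, with a median log2 change of 0.19 (also 0.19 with no filter). Of the 10 at 1 FPKM or more in all controls, 2 rose and 1 fell.

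Etv5, an ETS factor downstream of FGF signalling, had 11.9, 10.4 and 7.01 FPKM in dKO oocytes and 1.498, 1.68 and 0.976 FPKM in control oocytes (log2 change 2.16; limma adjusted p = 0.000411). Tcf7l1, the WNT pathway repressor that restrains the network, had 2.29, 2.98 and 3.65 FPKM in dKO oocytes and 0.300, 0.0675 and 0.263 FPKM in control oocytes (log2 change 1.71; limma adjusted p = 0.000425). Zscan10 averaged 4.97 ± 1.77 FPKM in dKO oocytes and 1.31 ± 0.124 FPKM in control oocytes (SD, n = 3). Tcf7l1 entered the test through its dKO values alone. The genes that rose thus include Tcf7l1, known to restrain the network, and Zscan10, known to sustain it. The nuclear receptor gene Nr5a2, also a granulosa gene and named after its values were seen, rose by 0.60 (limma adjusted p = 0.0288) and lost its call without any 1 control (up to 0.152) and after median-ratio scaling. Dnmt3l, the cofactor of de novo DNA methylation in oocytes, fell to 25.2 ± 5.65 FPKM in dKO oocytes, against 41.6 ± 1.38 FPKM in control oocytes (SD, n = 3), and also lost its call without any 1 control (limma adjusted p up to 0.0993).

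Of 8 LIF and STAT3 pathway genes, which maintain mouse stem cells from outside, 6 were tested. Limma called 0 of them in either direction, with 0 also at an unadjusted p under 0.05. Over all tested genes 21.0% were called. The receptor subunit gene Il6st averaged 49.1 ± 6.92 FPKM in dKO oocytes and 51.7 ± 4.37 FPKM in control oocytes, and Stat3 48.9 ± 5.83 and 44.95 ± 1.17 FPKM in dKO and control oocytes (SD, n = 3). Their median log2 change was 0.14.

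Of 14 genes of the formative and primed epiblast, the stage after the naive state, 3 were tested and 2 rose. Over all tested genes 14.0% rose. Eomes, a T-box gene of mesendoderm and trophoblast, had 8.18, 5.70 and 4.90 FPKM in dKO oocytes and at most 0.0412 FPKM in control oocytes. Pou3f1, a POU factor of the primed state, had 3.36, 1.76 and 1.48 FPKM in dKO oocytes and at most 0.0225 FPKM in control oocytes. Both entered the test through their dKO values alone. With no filter 4 of 12 were higher and 0 lower, against 9.88% and 2.68% of all genes. Otx2 and Lefty1 were listed at 0 in every library.

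Among 12 genes of the LIN28 and let-7 axis 11 were tested, 2 rose and 1 fell, against 14.0% and 7.04% of all tested genes. Of the 10 at 1 FPKM or more in all controls, 1 rose and 1 fell, against 7.03% and 8.17% of such genes. These counts were near the shares over all genes. Lin28b, the paralog of Lin28a, had 9.27, 9.14 and 14.2 FPKM in dKO oocytes and 4.497, 5.72 and 4.12 FPKM in control oocytes (log2 change 1.02; limma adjusted p = 0.0139). It lost its call without control replicate 1 or 3 (up to 0.0673). Whether Lin28b and Lin28a changed unequally was not tested. The let-7 target gene Igf2bp1 averaged 2.33 ± 1.11 FPKM in dKO oocytes and 0.0747 ± 0.0303 FPKM in control oocytes and entered the test through its dKO values alone, while Igf2bp2 averaged 121 ± 14.0 FPKM in dKO oocytes and 186 ± 7.49 FPKM in control oocytes (SD, n = 3). Igf2bp2 lost its call without any 1 control (limma adjusted p up to 0.103) and after quantile normalization.

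The closest paralogs of the members were followed as a list of 16, of which 10 were tested and Sall3, Pou3f1, Sall1 and Lin28b rose, where 14.0% of all tested genes did. All but Lin28b entered the test through their dKO values alone. Of the 7 paralogs at 1 FPKM or more in all controls 1 was higher and 0 lower, against 7.03% and 8.17% of such genes. Sall3 had 9.70, 8.99 and 10.6 FPKM in dKO oocytes and 0.0818, 0.256 and 0.269 FPKM in control oocytes (log2 change 3.16; limma adjusted p = 1.85e-05). Sall1 had 1.95, 2.18 and 1.21 FPKM in dKO oocytes and was listed at 0 in all control libraries. Both are low in control oocytes, where Sall4 is the abundant paralog. Sox3 and Sox1, the nearest relatives of Sox2, were below the filter, with 4.34, 1.12 and 0.415 FPKM and 1.79, 0.698 and 0.372 FPKM in dKO oocytes, and at most 0.0173 and 0.168 FPKM in control oocytes. Like Sox2, both had their highest value in dKO replicate 1.

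**Figure D5:**
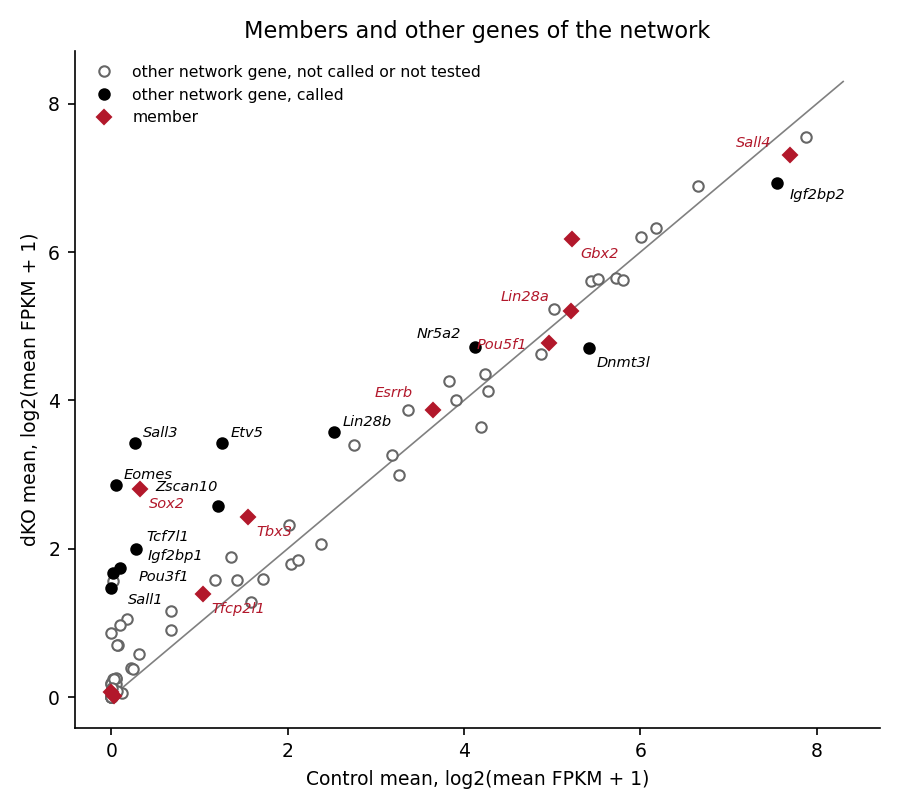
Group means on the log2(mean FPKM + 1) scale, dKO against control, for the 10 members (red diamonds) and 69 other network genes (circles, filled where limma called them); the line marks equal levels. Sox2 sits near the left edge with Sall3 and Eomes, which are also close to 0 in control oocytes, while Pou5f1, Lin28a and Esrrb lie close to the line.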

How the data were processed

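The authors deposited 1 table of FPKM values. The submitters' processing notes name TopHat2 2.0.11, Cufflinks 2.0.2 and mm9; what each did, which annotation and strand setting were used, and how libraries were scaled is not given in the sources used here. Amplification used the Ovation v2 Kit, per the labels' protocols.

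Of 24525 rows, 497 exact repeats were removed. Genes reaching 1 FPKM in 3 or more libraries were fitted with limma 3.58.1 in R 4.3.3 (mean-variance trend, unpaired) on log2(FPKM + 1). Fold changes on this scale understate those of low genes. The fit was tested on simulated data with equal spread in both groups. It was not tested under the larger dKO spread of these data. Fits without a library kept the same genes. Same-numbered libraries shared a sequencing lane per the labels, and their deviations from group means correlated at 0.147, 0.107 and 0.0637. Per the labels, 1 index sequence marked every dKO library and a different one every control, which makes any effect of the index inseparable from genotype. Exons of Pou5f1, Tbx3, Gbx2, Tfcp2l1, Lin28a and Sall4 overlap another gene in GENCODE M21.

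Members and lists were chosen with earlier results of these data known. Named were all members, Ring1 and Rnf2, up to 3 rises and 3 falls per network list (or its 2 highest genes), the 2 highest genes per marker list, and the 3 genes nearest to Sox2 and Pou5f1. The search for nearest genes covered tested genes without Gm, LOC or Rik symbols. Sox2ot, the neighbouring genes, the promoter features and further list genes were added after values were seen.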

Additional observations from a re-analysis of the deposited data

How the results depend on the processing

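Alternatives were other pseudocounts, filters, scalings and variance models, a replicate block and the removal of each library. With the replicate block 1681 genes were higher and 887 lower, and no member's call changed. Members higher numbered 1 with the filter at 5 FPKM, which removed Sox2, Tbx3 and Tfcp2l1, and 1 to 3 on removal of 1 library (1 without control replicate 1 or 3). Members lower numbered 0 to 1 on such removal. Over all genes, 655 were higher with the filter at 5 FPKM and 1276 lower after median-ratio scaling. On removal of 1 library 1087 to 1869 were higher and 231 to 1465 lower. As reported 1587 were higher and 798 lower, and after quantile normalization 1191 and 1073. Other network genes higher numbered 4 with the filter at 5 FPKM and 8 to 10 on removal of 1 library, and those lower 1 after quantile normalization and 0 to 3 on removal. After quantile normalization the log2 changes of Tfcp2l1, Lin28a, Il6st, Cd68 and Tyw1 were -0.084, 0.012, 0.046, -0.20 and 0.037. Tyw1 was at 0.014 with array weights. On removal of 1 library Lin28a ranged from -0.35 to 0.27, Il6st from -0.18 to 0.0069, Cd68 from -0.18 to 0.58 and Tyw1 from -0.29 to 0.066. The causes were not tested. The median log2 change of all genes was -0.10 with the filter at 5 FPKM and -0.090 after median-ratio scaling, against -0.019 as reported. Absolute depth is unknown, so Nanog and Prdm14, near 0 everywhere, cannot be resolved further.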
